A study of Macaca mulatta with 22 samples.

Results

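Peaks of N6-methyladenosine (m6A) that the deposited annotation places in genes shorter than 400 bases made up 247 of the 10069 peaks in the lists of 11 infant rhesus macaques, and they fell in 132 of the 3626 annotated genes. The limit was set on the annotated gene length given with each peak, and nothing measured in the samples chose these peaks. The lists come from m6A-seq, in which an antibody enriches RNA fragments that carry the mark and enriched stretches are reported as peaks. Total RNA of the prefrontal cortex was taken at postnatal day 35. In all, 5 animals had inhaled sevoflurane, a volatile general anaesthetic, at about 2.5 to 3% for 4 h on about postnatal days 7, 21 and 35 (D and S1 were male, and F, S2 and S3 female). The 6 control animals were males A and B and females C, C1, C2 and C3. There is 1 peak list per animal, with 852 to 1673 peaks in sevoflurane animals and 452 to 1210 in controls. Read totals are unknown, and input libraries were not analysed here. RNA levels therefore do not enter, and in bulk tissue fewer cells of a type and less RNA per cell cannot be told apart. A peak in a control list that is missing from a treated one, or the reverse, need not be a change in methylation.

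Many short noncoding RNAs work in the nucleus or nucleolus. Box C/D and box H/ACA small nucleolar RNAs (snoRNAs) guide 2′-O-methylation and pseudouridylation of ribosomal RNA, and most are cut from introns of longer host genes. Small Cajal body RNAs guide the same changes in the spliceosomal U RNAs, which recognise splice sites and branch points. The signal recognition particle (SRP) RNA is the scaffold of the particle that brings secretory proteins to the endoplasmic reticulum. Y RNAs bind the Ro60 protein, and RNase P and RNase MRP RNAs are the RNA parts of enzymes that process transfer and ribosomal RNA. The m6A of most mRNAs is written by METTL3 and METTL14, while METTL16 methylates U6.

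The annotation did not always name the gene that a peak had been called in. Of the 247 peaks, 166 (67.2%) were called in the short gene itself, all on its strand. The other 81 (32.8%) were called in another gene, against 4.47% of the peaks in genes of 400 bases or more. In 22 of these the peak overlapped the short gene. In the remaining 59 the peak had exonic blocks on either side and shared no base with the short gene, which lay within its span. Of those 59, 25 were on the opposite strand. Peaks with no shared base cannot be read as m6A of a short RNA, and they remain in the counts over all 247 peaks below unless a sentence is limited to peaks called in the short gene. The smallest peak in any list covered 89 bases, the short genes with a peak of their own were 92 to 399 bases long, and those reached only through another gene were as short as 49 bases. The label short noncoding RNA holds for part of the genes: 62 of the 132 had a name, 70 had none in the files or the name table, and some named ones are short annotated transcripts of protein-coding genes, among them FBL (128 bases), WDR3 (375 bases) and mitochondrial ND3 (346 bases). Just inside the limit lay LOC706087 (399 bases) and a pair of unnamed genes of 393 bases. Just outside lay COG6 and an unnamed gene, both of 432 bases.

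**Figure D1:**
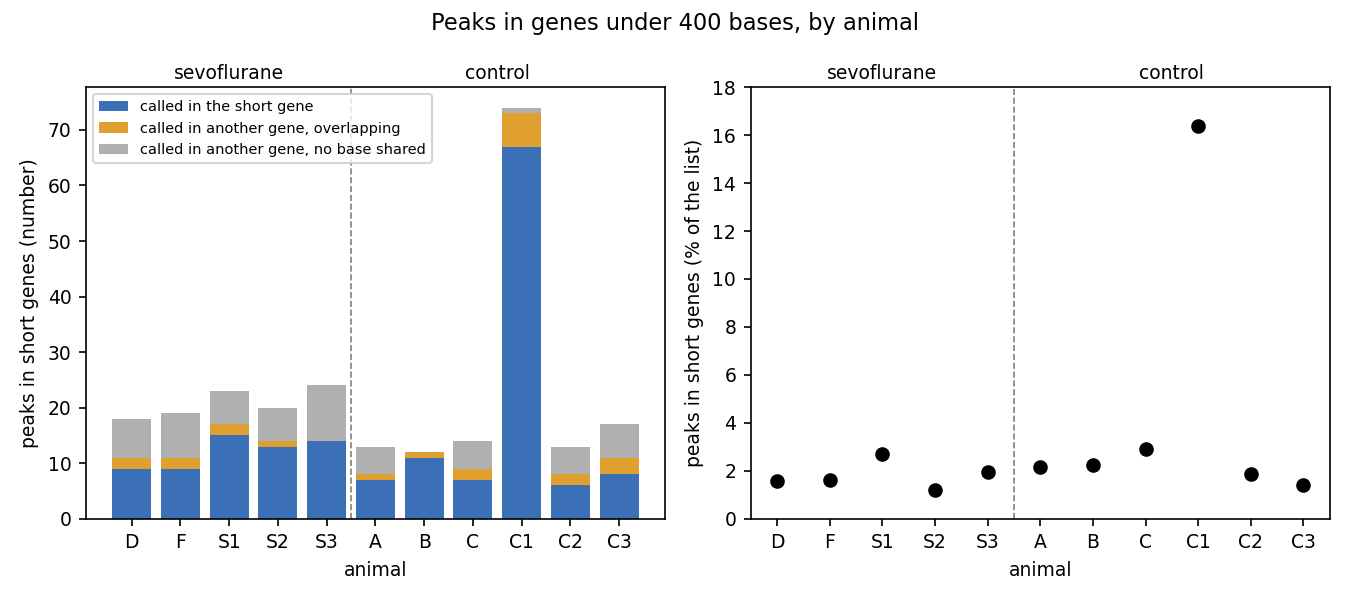
Left, the number of peaks in genes under 400 bases in each animal, split by how the peak was called. Right, the same peaks as a percentage of the animal's list. Control C1 has 74 such peaks, 67 of them called in the short gene, and 16.4% of its list, while the other 10 lists hold 12 to 24 peaks and 1.20 to 2.90%.

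One control list held a large share of all short gene peaks. C1, the shortest list with 452 peaks, had 74 of the 247, and 40.4% of the 166 called in the short gene. Sevoflurane animals D, F, S1, S2 and S3 had 18, 19, 23, 20 and 24 short gene peaks, and controls A, B, C, C1, C2 and C3 had 13, 12, 14, 74, 13 and 17. The mean was 20.8 ± 2.59 in sevoflurane animals and 23.8 ± 24.6 in controls (SD, n = 5 and 6). On the log2 scale with 1 added, sevoflurane minus control was 0.17, with p = 0.853 in a two-sided exact permutation test over all 462 splits. Without C1 the groups no longer overlapped (18 to 24 in sevoflurane animals, 12 to 17 in controls). The difference was then 0.56, with p = 0.00794 in the exact permutation test, the smallest that 252 splits allow. C1 was set apart because it had the highest count, so p-values without it depend on a choice made from these counts. Leaving out any other single animal gave 0.054 to 0.22, with an exact permutation p of 0.8 or more. For peaks called in the short gene alone, the difference without C1 was also 0.56, with 9 to 15 peaks in sevoflurane animals and 6 to 11 in controls (exact permutation p = 0.0317). The sevoflurane animals also had the longer lists on average. When every list was cut to the 452 peaks of lowest p-value and C1 left out, the difference was 0.11 (exact permutation p = 0.683). The cut does not thin the lists evenly, since short gene peaks ranked 19.5 percentile points above the rest by p-value. The part of list length in the number was not tested.

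As a share of the list, short gene peaks made up 1.57, 1.61, 2.70, 1.20 and 1.94% in sevoflurane animals D, F, S1, S2 and S3. In controls A, B, C, C1, C2 and C3 they made up 2.16, 2.24, 2.90, 16.4, 1.85 and 1.40%. The groups overlapped, and C1 stood apart from the other 10 animals. Sevoflurane minus control was -2.68 percentage points (exact permutation p = 0.433, two-sided), and without C1 it was -0.308 (p = 0.397 in the exact test). For peaks called in the short gene itself the difference in share was -2.46 points (exact permutation p = 0.530), or -0.193 without C1 (exact permutation p = 0.556). No difference in share between the groups was therefore detected with or without that list.

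The named noncoding RNAs split into a small set shared by nearly every animal and a large set found in C1. Counting peaks called in the short gene, the shared set was an SRP RNA gene, with a peak in all 11 animals, and SCARNA17, with a peak in 10. All other named snoRNA, U RNA, Y RNA, RNase P, RNase MRP and 5.8S ribosomal RNA genes together gave 35 such peaks in C1 and 2 in the other 10 lists, SNORA53 in S3 and RNase MRP RNA in S1. Among named genes, box C/D snoRNAs (8 peaks), U RNAs (7), Y RNAs (3) and 5.8S rRNA (1) were called in C1 alone. Box H/ACA snoRNAs had 14 peaks in C1 and 1 in S3. The kind of the unnamed genes is unknown. They held 94 of the 166 peaks called in the short gene, 28 of them in C1. Members of these kinds may therefore be among them in any list.

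**Figure D2:**
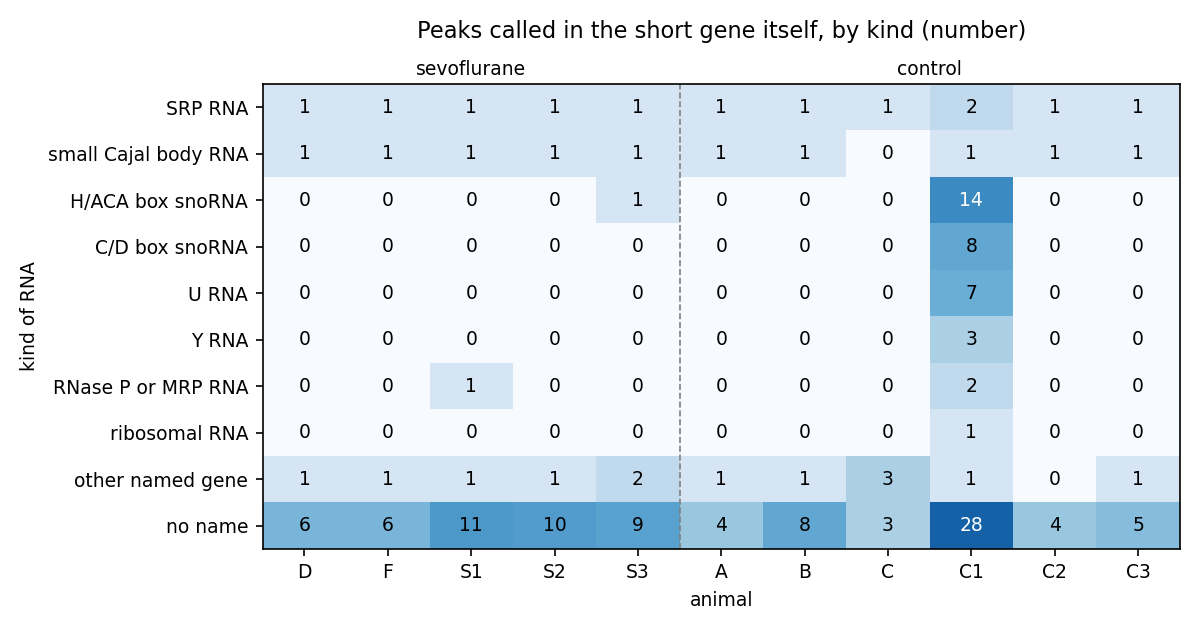
Number of peaks called in the short gene itself for each kind of RNA (rows) in each animal (columns). SRP RNA and small Cajal body RNA fill nearly every column, while named snoRNA, U RNA and Y RNA peaks stand in the C1 column, with 1 box H/ACA peak in S3. Genes with no name, whose kind is unknown, have peaks in every column.

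The SRP RNA gene, listed as Metazoa_SRP (296 bases, chromosome 4, 29433017 to 29433312, plus strand, rheMac8), was the only short gene with a peak in every list. The authors' fold enrichment there was 9.12, 8.45, 19.8, 9.57 and 10.4 in sevoflurane animals D, F, S1, S2 and S3, and 7.36, 8.18, 6.77, 13.3, 7.20 and 6.48 in controls A, B, C, C1, C2 and C3. These folds are each list's own and were not tested between groups. Within its list the peak stood near or above the middle, at percentile 60.0 to 81.7 of fold enrichment in sevoflurane animals and 48.4 to 77.1 in controls. It covered the same 266 of the 296 bases (29433017 to 29433282) in 10 animals and all 296 in C1. C1 also had a peak in a second gene listed under that name (287 bases, chromosome 5), at percentile 91.9 of its list. Over all lists, annotated peaks fell in 4 SRP RNA genes. Reads could be placed at 1 copy or another, so which copy carried the signal is uncertain.

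SCARNA17, a small Cajal body RNA (144 bases, chromosome 18, 38800647 to 38800790, plus strand), had a peak in 5 of 5 sevoflurane animals and 5 of 6 controls; C had none. Its fold enrichment was 12.1, 4.92, 7.07, 13.5 and 34.9 in sevoflurane animals D, F, S1, S2 and S3, and 15.6, 23.0, 8.74, 10.7 and 57.3 in controls A, B, C1, C2 and C3. The values overlapped widely, with the highest in control C3 and the lowest in F. The peak covered the whole gene in 9 of the 10 lists and most of it in B. Its place within the list ran from percentile 39.6 to 92.3 in sevoflurane animals and from 63.9 to 98.8 in controls.

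The mitochondrial gene of transfer RNA size gives a different picture. ENSMMUG00000028688, 72 bases long on the minus strand of the mitochondrial chromosome (7390 to 7461), was the annotated gene of a peak in 4 of 5 sevoflurane animals and 6 of 6 controls. All 10 peaks were called on the other strand in COX1, which encodes a core subunit of cytochrome c oxidase, and overlapped the 72-base gene by 29 bases. They were among the most enriched peaks of their lists, at percentile 99.2 to 99.9 in sevoflurane animals and 98.3 to 100 in controls. Fold enrichment was 77.7, 98.7, 221 and 93.7 in sevoflurane animals D, F, S1 and S2, and 89.4, 499, 168, 227, 56.1 and 76.9 in controls A, B, C, C1, C2 and C3. These values belong to COX1. No peak was called in a mitochondrial gene of that size itself. With no peak in any list under 89 bases, that absence says nothing about m6A in such a gene.

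ND3, which encodes a subunit of respiratory complex I and has a short mRNA (mitochondrial chromosome, 10050 to 10395), had a peak in 5 of 5 sevoflurane animals and 4 of 6 controls (p = 0.455, two-sided Fisher's exact test). Its fold enrichment was 30.8, 13.6, 6.19, 8.74 and 57.7 in sevoflurane animals D, F, S1, S2 and S3, and 7.07, 67.2, 40.1 and 19.6 in controls A, B, C and C3. C1 and C2 had no ND3 peak. The peak covered at most 231 of the 346 bases in either group.

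An unnamed gene of 96 bases on chromosome 16 had 6 annotated peaks, in 3 animals of each group, and shared no base with any of them.

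**Figure D3:**
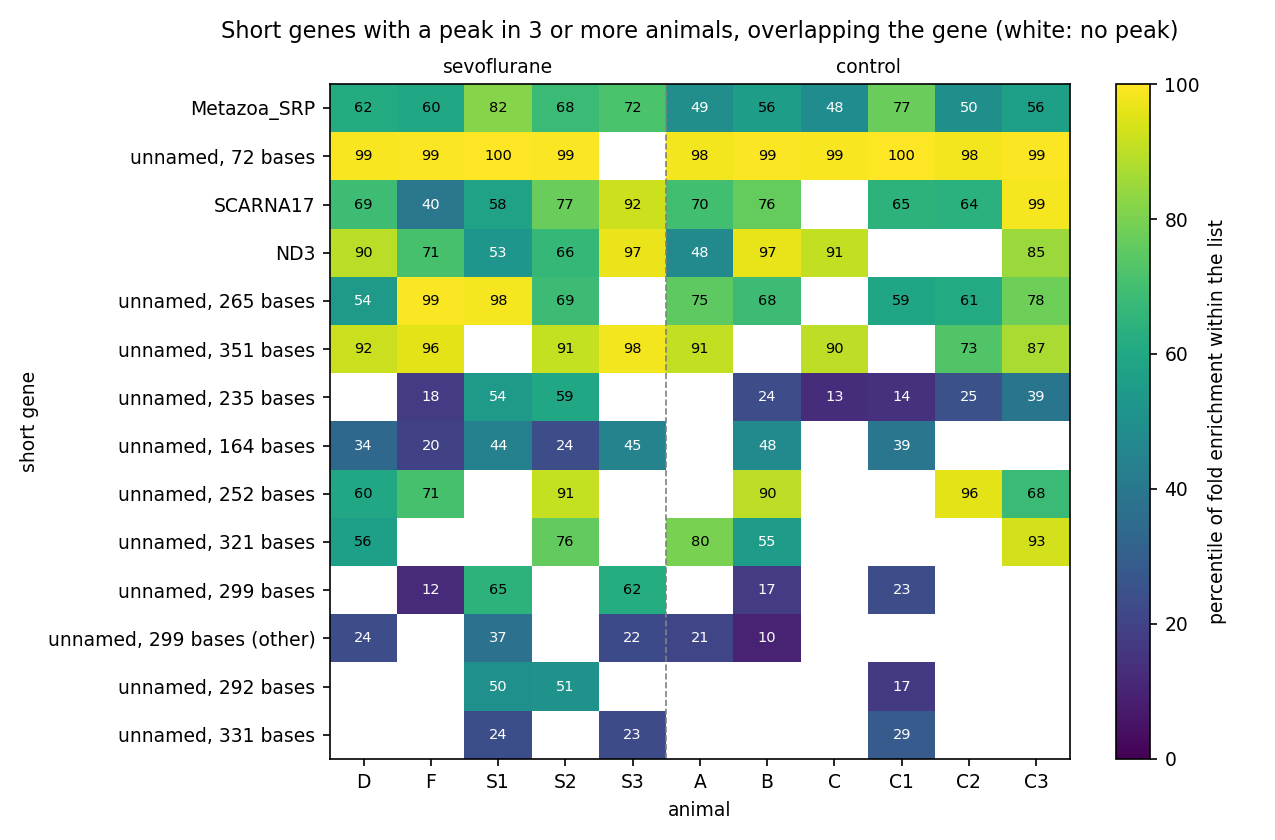
Short genes (rows) with an annotated peak in 3 or more animals (columns), at least 1 of which overlaps the gene, coloured by the percentile of the peak's fold enrichment within that animal's list; white means no peak. The unnamed gene of 72 bases stands at percentile 98.3 or above in each of its 10 lists, and all its peaks were called in COX1.

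Of the 16 short genes with an annotated peak in at least 3 animals, 13 had no symbol. An unnamed gene of 265 bases on an unplaced contig had its own peak in 4 of 5 sevoflurane animals and 5 of 6 controls, at percentile 53.7 to 99.2 and 59.1 to 78.0. An unnamed gene of 351 bases on chromosome 2 (56904425 to 56904775) had one in 4 of 5 and 4 of 6, and stood high in each list, at percentile 91.0 to 98.3 in sevoflurane animals and 72.9 to 90.8 in controls. A gene of 252 bases on chromosome 1 had a peak in 3 animals of each group, at percentile 59.6 to 91.0 and 68.0 to 96.1. A gene of 235 bases on chromosome 10 had a peak in 3 of 5 sevoflurane animals and 5 of 6 controls; in C2 and C3 its peak was called in NNAT, which encodes the brain proteolipid neuronatin. A gene of 321 bases on chromosome 14 had a peak in 2 of 5 sevoflurane animals and 3 of 6 controls, at percentile 56.3 to 75.8 and 54.8 to 93.1. Genes of 292 bases on chromosome 13 (S1, S2 and C1) and of 331 bases on chromosome 4 (S1, S3 and C1) had one in 3 animals each, at percentile 16.8 to 51.4 and 23.0 to 28.9.

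Presence of a peak was compared between the groups gene by gene with Fisher's exact test. Of 1454 genes of any length with a peak in 2 to 9 animals, 29 (1.99%) had an unadjusted p under 0.05, all 29 with a larger share in sevoflurane animals, and none passed after Benjamini-Hochberg adjustment. Of the 132 short genes 22 could be tested, and 0 had p under 0.05. Of these 22, 7 had a peak in more sevoflurane than control animals, 4 in more control animals and 11 in equally many of both. As a share of the 5 and 6 animals, 18 of the 22 were higher in sevoflurane animals and 4 in controls. Of the 22, 4 shared no base with any of their peaks. The median difference in share, as a fraction of the animals, was 0.033 for the short genes, which is that of 1 animal in each group, and 0.23 for all genes tested. The lowest p belonged to an unnamed 164-base gene on chromosome 1 (123183083 to 123183246, plus strand), with a peak in 5 of 5 sevoflurane animals and 2 of 6 controls, B and C1 (exact p = 0.0606, adjusted p = 0.611). Its fold enrichment was 4.18, 3.30, 5.38, 3.30 and 4.52 in sevoflurane animals D, F, S1, S2 and S3, and 6.51 and 4.56 in controls B and C1. B and C1 were the only controls with this peak, so leaving out either lowers its p, and the exact p was then 0.0476. Without B, 33 of 1433 genes of any length had p under 0.05, and without C1 35 of 1459. With A, C, C2 or C3 left out instead, the lowest exact p of any short gene was 0.167.

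Of the 132 short genes, 106 (80.3%) had a short gene peak in a single animal, against 1937 of 3494 longer genes (55.4%). For 36 of the 106 that peak shared no base with the gene. C1 alone gave 54 of the 106, S3 gave 12, and the other lists 1 to 7 each. With the genes of C1 alone left out, 52 of 78 (66.7%) were in a single list. A peak in 9 or more animals was found for 6 short genes (4.55%) and 172 longer ones (4.92%).

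The share of each kind of RNA was compared between the groups for the 8 kinds present in at least 3 animals. None differed after Benjamini-Hochberg adjustment over the 8. The lowest p was that of the mitochondrial 72-base gene, 0.0699 ± 0.0441% of the list in sevoflurane animals and 0.168 ± 0.0503% in controls (exact permutation p = 0.0130, adjusted p = 0.104). It has 1 peak in each of 10 lists, so its share follows the length of the list. Box H/ACA snoRNAs made up 0.0501 ± 0.0755% in sevoflurane animals and 0.641 ± 1.42% in controls (exact permutation p = 0.727), and C1 held 16 of the 21 peaks. Of the 21, 4 shared no base with the snoRNA (2 in F, 1 in A and 1 in C2), and the one sevoflurane peak called in a box H/ACA gene was that of S3. Limited to peaks called in the short gene, 4 kinds could be tested and 0 passed the adjustment.

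The short genes of C1 were in part the classical small RNAs of ribosome and spliceosome biology. Its 67 peaks called in a short gene lay in 67 genes, 54 of which had a peak in no other list. By kind, 14 were box H/ACA and 8 box C/D snoRNAs, 7 were U RNAs, 3 Y RNAs, 2 RNase P or RNase MRP RNA, 2 SRP RNA, 1 SCARNA17, 1 5.8S rRNA, 1 another named gene and 28 had no name. The highest within the list among the genes of C1 alone was a U1 RNA gene, whose RNA pairs with the 5′ splice site (164 bases, chromosome 5, 66936872 to 66937035), with a fold enrichment of 41.6 at percentile 97.6. Next came an unnamed gene of 393 bases on an unplaced contig (percentile 94.6), the second SRP RNA gene, an unnamed gene on chromosome 1 (percentile 85.5), and SNORD13, a C/D box RNA that acts on 18S rRNA by guiding acetylation (104 bases, chromosome 8, 33640604 to 33640707), with a fold of 12.3 at percentile 74.6. The sixth was an unnamed gene of 119 bases on chromosome 1 (percentile 69.7).

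The U RNA genes of C1 were 4 of U5, and 1 each of U1, U2 and U12. U5 contacts both exons during splicing, U2 pairs with the branch point, and U12 serves the minor spliceosome. The 4 U5 genes, on chromosomes 1 and 7, had folds of 8.36, 8.10, 6.85 and 6.21. The U2 gene (191 bases, chromosome 14) had a fold of 4.46 and the U12 gene (150 bases, chromosome 10) one of 7.47. Each of the 7 peaks covered its whole gene. Genes of such families have near-identical copies, and reads could be placed at 1 copy or another, so which copy carried the signal is uncertain.

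The 3 Y RNA genes of C1 lay within 25968 bases of each other on chromosome 3 (170090690 to 170116657). Each was covered whole, and they ranked low, with folds of 3.62, 2.51 and 2.76. The RNase P RNA gene (333 bases, chromosome 7) had a fold of 2.70 and the 5.8S rRNA gene (153 bases, chromosome 16) one of 2.77. The RNase MRP RNA gene (260 bases, chromosome 15, 48602714 to 48602973) had a fold of 2.09 in sevoflurane animal S1 and 3.71 in control C1. In C1's list these stood at percentile 8.74, 10.3 and 26.8.

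The 22 snoRNA peaks of C1 had a median fold enrichment of 3.73 (2.18 to 12.3), and 3 of the 22 stood above the 50th percentile of the list. They were SNORD13, SNORA36B and SNORA51, with SNORA36B at percentile 58.0 and SNORA51 at 55.3. Lowest was SNORA23, at percentile 0.664. Of these 22 genes, 15 overlapped a named longer gene. SNORA62 (2 genes) overlapped RPSA, SNORD15 (2 genes) in RPS3, SNORA3A in RPL27A, SNORA70 in RPL10, SNORA81 in EIF4A2 and SNORA48 in EIF4A1. RPSA, RPS3, RPL27A and RPL10 encode ribosomal proteins, and EIF4A1 and EIF4A2 the helicase of translation initiation. SNORA51 overlapped NOP56, a core protein of box C/D particles, and IDH3B. The others overlapped RAB3GAP2, KHDC4, CHD8, EP400, IPO7 and LRCH2. A peak of their own in C1 was found for 1 of the 15 overlapping sets, IDH3B, and that peak spans SNORA51 on the opposite strand.

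At 5 short genes of C1 a pair of overlapping peaks was called under different gene identifiers: U8, U3, SNORA51, SNORA70 and an unnamed gene of 216 bases. At U3 and the unnamed gene the paired peaks differed by 1 base, while at U8 they covered 108 and 180 bases, and at SNORA51 and SNORA70 the second peak was longer and on the opposite strand. U3 and U8 act in the processing of ribosomal RNA. The U3 peak had a fold of 3.60 under both identifiers. Counting genes in place of peaks takes the short total of C1 to 69.

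Short gene peaks in C1 also differed in form. The 67 genes with their own peak in C1 had a median length of 141 bases, against 259 for the 32 such genes of the other animals. Under 200 bases were 52 of 67 genes (77.6%) in C1 and 10 of 32 (31.3%) elsewhere. The peak covered the whole gene, to within 0.5%, in 48 of 67 peaks (71.6%) in C1 and in 12 of 99 (12.1%) elsewhere, where recurrent genes count once per animal. The other peaks of C1 differed too: 81.2% had a single block, against 58.1 to 71.3% in the other 10 lists, and their genes had a median length of 23083 bases, against 30079 to 38930. Genes of 400 bases to below 1000 made up 2.43% of its peaks, the highest of all lists, against 0.956 to 2.28% elsewhere. Genes below 400 bases made up 16.4%, against 1.20 to 2.90%, so the larger gap lay below the limit.

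**Figure D4:**
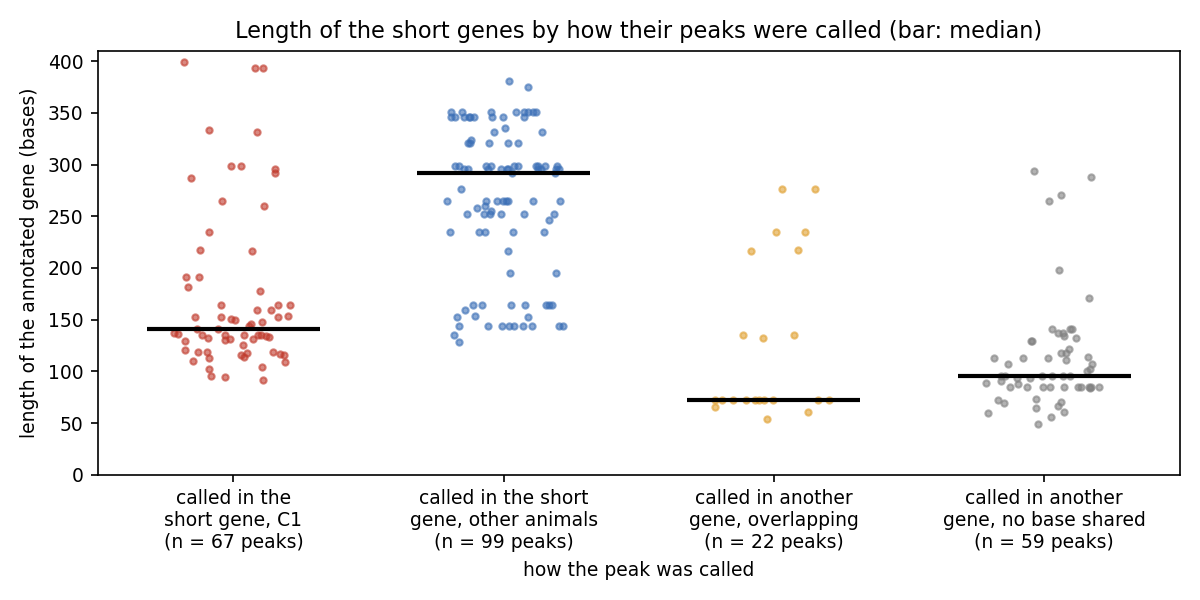
Length of the annotated short gene for every peak, by how the peak was called; each point is a peak and the bar is the median. Over peaks, so that a recurrent gene counts once per animal, the median is 141 bases for those called in C1, 292 for the other animals, and for those reached through another gene 72 (overlapping) and 96 bases (no base shared).

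Within each list, the fold enrichment of short gene peaks was ranked against that of the rest. Over all 247 peaks the median percentile was above that of the longer genes in 9 of 11 animals. The mean difference was 6.05 ± 11.6 points (SD, n = 11, exact sign-flip permutation p = 0.110, two-sided). It was 4.02 points on nuclear chromosomes alone (exact sign-flip p = 0.215) and 0.138 for genes below 200 bases (exact sign-flip p = 0.960), however the peaks were called. For the 166 peaks called in the short gene the median percentile was above in 10 of 11, by 10.9 ± 12.9 points (exact sign-flip permutation p = 0.0195). The medians of those peaks were 59.6, 60.0, 52.6, 66.5 and 62.0 in sevoflurane animals D, F, S1, S2 and S3, and 69.7, 54.8, 69.6, 35.8, 62.6 and 83.7 in controls A, B, C, C1, C2 and C3. C1 went the other way, at 35.8 against 54.1 for its longer genes. Without C1 the difference was 13.9 ± 9.03 points (n = 10, exact sign-flip permutation p = 0.00195, the smallest that 1024 flips allow). C1 was the only list on the other side and was left out after its values were seen. With all remaining lists on 1 side the p takes its smallest value, so it adds nothing to the result over 11 animals.

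**Figure D5:**
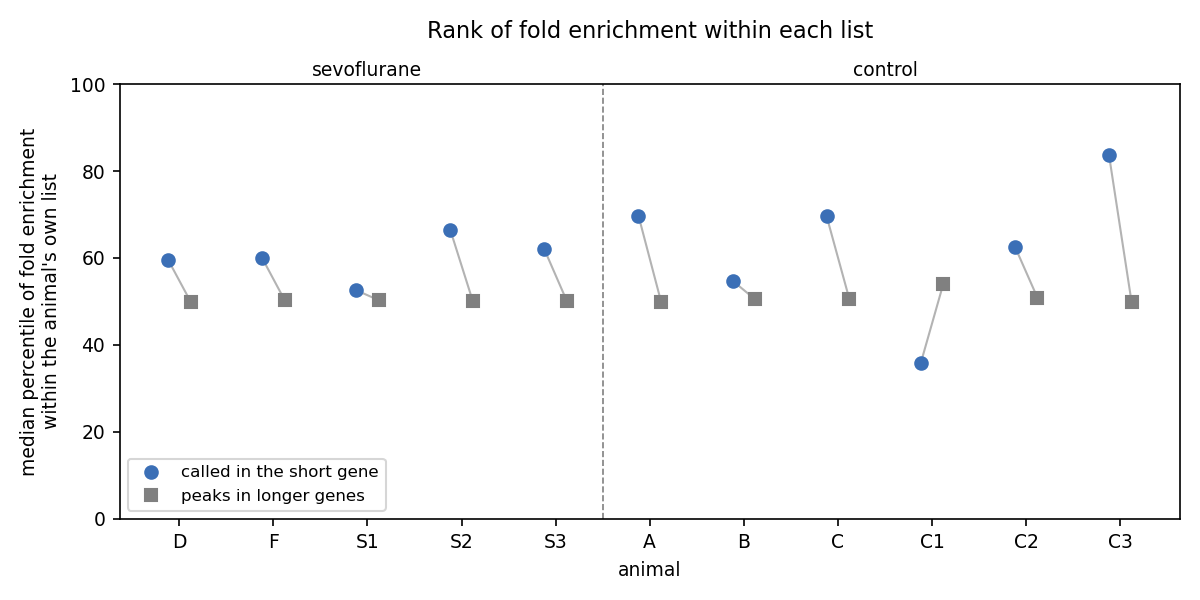
Median percentile of fold enrichment within each animal's own list for peaks called in a short gene (circles) and peaks in longer genes (squares). The circle lies above the square in 10 of 11 animals and below it in C1.

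The 59 peaks with no shared base were called in 42 genes, 37 of them in a single animal. Sevoflurane animals D, F, S1, S2 and S3 had 7, 8, 6, 6 and 10 such peaks, and controls A, B, C, C1, C2 and C3 had 5, 0, 5, 1, 5 and 6. Recurrent hosts included NCL, which encodes the nucleolar protein nucleolin and holds SNORA75 (F and C2), ANK3, which encodes ankyrin G of the axon initial segment (C and C2), and PPP1R9A, which encodes the spine protein neurabin 1 (F and S3). SNORA37 stood for a peak in MBD2, SNORA72 for one in RPL30 and SNORD45A for one in RABGGTB. The U2, U4, U6, U7 and Y RNA genes outside C1 (5 U RNA and 5 Y RNA peaks) were all of this class, as were the microRNA genes mml-mir-648 (in MICAL3) and MIR3154 (in DNM1).

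The proteins that work with these RNAs were counted by their own called peaks. Of 35 members of the partner lists, 11 had a peak in at least 1 animal. The lists were counted with no test between groups. Sevoflurane lists were the longer ones, with a mean of 1217 peaks against 664 in controls. Over all 1454 genes tested, the median difference in share of animals was 0.23, larger in sevoflurane animals. FBL, the box C/D methyltransferase fibrillarin, had one in 4 of 5 sevoflurane animals and 6 of 6 controls. GAR1 of the H/ACA particle had one in 2 of 5 and 1 of 6. SNRNP70, the U1 protein, had a peak in all 11 animals, and SART3, which recycles U4 and U6, in 4 of 5 sevoflurane animals and 1 of 6 controls. For the 7SK particle, HEXIM1 had one in 4 of 5 and 3 of 6, and MEPCE, its capping enzyme, in 3 of 5 and 0 of 6. METTL16 had one in 2 of 5 and 0 of 6. SRP9, SRP54 and SRP68 had one in 1 control each, as did PRPF8. No member of the Cajal body list had a peak, nor did SSB or RO60. No gene of the imprinted snoRNA clusters that are expressed in brain had one either. No gene below 92 bases had a peak of its own in any list, and the lengths of the cluster genes were not examined. The absence of the cluster genes therefore says nothing about m6A in those snoRNAs. As a check of the tissue label, 5 of 19 cell type markers had a peak somewhere: neuronal CAMK2A in 4 animals, SLC32A1 in 5 and SYT1 in 2, oligodendrocyte MBP in 1 and microglial CX3CR1 in 1, with 0 of 4 astrocyte markers. A peak gives no RNA level, so this neither shows nor denies a cell type.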

How the data were processed

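Each of the 11 immunoprecipitated samples has 1 table of annotated peaks. Per the labels' protocols, total RNA was fragmented, immunoprecipitated with an m6A antibody and made into stranded libraries. The rheMac8 build and the tools HISAT2 2.1.0, StringTie, cutadapt and Trim Galore 0.5.0 are listed, without roles, per the submitters' processing notes. The peak caller is not given in the sources used here. Per the file headers, the deposited values are a p-value for each peak, its log10 p-value and log10 false discovery rate (negative scores), and a fold enrichment (a ratio), all the authors' own. Peaks are listed per animal.

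Short genes were those with a listed gene length below 400, which is the length of the annotated transcript. Starts count from 0, since 89 peaks began 1 base below a gene start and 0 on it; printed starts have 1 added. Kinds followed the symbol or Ensembl name; Metazoa_SRP was put with SRP RNA after the names were seen. A mitochondrial gene under 100 bases counted as of transfer RNA size. Fold enrichment was ranked within each list as a percentile and not compared between groups, because ranks from lists of unequal length show no change.

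Numbers (log2, 1 added) and shares were compared by two-sided exact permutation over animals, kinds with Benjamini-Hochberg adjustment, percentiles by exact sign flips over animals, and genes present in 2 to 9 animals by Fisher's exact test with Benjamini-Hochberg adjustment over all genes. The smallest p with 5 against 6 animals is that of 1 in 462 splits. Scripts were tested on simulated data. Python 3.11.15, pandas 2.3.3, NumPy 2.4.6 and SciPy 1.17.1 were used. Animals are separate, and the depth is unknown, so precision rests on their number. Genes named were up to 20 short genes found in most animals (at least 3), up to 5 in each direction by Fisher's p, the most frequent of each kind, and up to 6 of C1 alone with the highest percentile, with at most 2 named by identifier. The snoRNA, U RNA and Y RNA genes of C1, the host genes, FBL and WDR3 were named after their values were seen. The members and lists were chosen with earlier results of these data known. Alternatives were other length limits, stricter p-values of at most 1e-05, lists of equal length, nuclear genes only, the calling gene, strata by sex and name, the replicate block and leaving out each animal. A recurrent gene that the naming rule takes is not reported here.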

Additional observations from a re-analysis of the deposited data

Results flagged for a closer look

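The counts of control C1 stood apart from those of the other 5 controls by Dixon's criterion at 95%, which chance meets in about 1 in 20 groups. This was so for its 74 short gene peaks (16.4% of its list) and for the 67 called in the short gene itself (14.8%). By kind it was so for 14 box H/ACA and 8 box C/D snoRNA peaks, 7 U RNA, 3 Y RNA, 2 RNase P or MRP RNA, 2 SRP RNA, 1 ribosomal RNA and 28 peaks in genes with no name. Control C was flagged for its 3 peaks in other named genes (ND3, WDR3 and LOC697469) and for having 0 SCARNA17 peaks. Among sevoflurane animals, S3 was flagged for its 1 box H/ACA peak and 2 other named peaks (ND3 and FBL), and S1 for its 1 RNase MRP RNA peak. Counts this small meet the criterion whenever 1 animal differs from otherwise equal ones.

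The sevoflurane minus control difference in short gene peaks was not shown to differ between the sexes. In log2 number it was -0.076 in females and 0.66 in males (exact relabelling of sex within treatment, p = 0.513). In share it was -4.05 points in females and -0.0679 in males (exact relabelling p = 0.520). The female values include C1, with 16.4% of its list, against 2.90, 1.85 and 1.40% in female controls C, C2 and C3.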

How the results depend on the processing

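The difference in the number of short gene peaks changed sign under some settings, none of them past the threshold: -0.35 (log2) with lists of equal length, -0.19 with the numbered animals alone and, the same value, with the replicate number as a block (C1 with S1, C2 with S2 and C3 with S3; exact sign-flip p = 1 for number and 0.5 for share, smallest possible 0.25), and -0.076 in females alone. The numbers are names in the labels and nothing there pairs the animals. Leaving out 1 animal gave 0.054 to 0.56 for number, -3.30 to -0.308 points for share, and 3.96 to 8.25 points for the percentile. Only leaving out C1, the list with the highest count and the lowest median percentile of short gene peaks, took number and percentile past the threshold. With C1 left out, number among peaks called in the short gene was 0.56 (chosen after seeing the data; exact permutation p = 0.0317), and the share in lists of equal length turned to 0.177 points (exact permutation p = 0.746). The percentile difference passed the threshold for peaks called in the short gene (10.9 points, or 13.9 without C1) and when ranked by log10 p-value (19.5 points; exact sign-flip p = 0.00391). It was near 0 for genes below 200 bases (0.138 points; exact sign-flip p = 0.960), below 300 bases (0.987; p = 0.713, exact) and at peak p-values of at most 1e-05 (0.656; p = 0.872, exact). The number of kinds past adjustment was 0 in all settings run, and that of short genes called was 0, or 1 without B or without C1 (0 to 1). Without B this was 1 of 25 short genes tested, against 33 of 1433 genes of any length. Without C1 it was 1 of 21, against 35 of 1459. The cause of these changes was not tested. Depth is unknown, so an absent peak is not an absent mark.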

Other observations

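The short genes of sevoflurane animal S1 were mostly genes that also had a peak in control C1. Of the 15 genes with their own peak in S1, 12 (80%) had one in C1, which is 17.9% of the 67 in C1. For the other 9 animals the shared part was 28.6 to 66.7% of their own short genes and 2.99 to 8.96% of those of C1. The pair share RNase MRP RNA, a pair of unnamed 153-base genes on unplaced contigs and an unnamed 299-base gene on chromosome 7, none of which had a peak in another animal. The difference was not tested.

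Among the unnamed genes, 3 of 299 bases lay on chromosome 7 between 111577823 and 111870687. The first had a peak in S1 and C1, and each of the other two in 3 sevoflurane animals and 2 controls.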
